A study of Mus musculus with 17 samples.

Results

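The 48 genes described here carry a cell through mitosis and cytokinesis. They were listed by symbol and matched to the Ensembl identifiers of the count files, and all 48 were found among the 53313 gene identifiers that every library shares. RNA had been sequenced from 17 wild-type (WT) samples of the strain labelled C57BL/6Rj, written C57BL/6JRj in the authors' methods. Primary tubular epithelial cells (PTEC), grown from collagenase-digested kidneys in REGM2 medium and labelled as proximal tubular cells, were either non-senescent (day 6 of culture, not irradiated, n = 4) or senescent (day 16, after γ-irradiation with 10 Gray, n = 4), so irradiation and days in culture cannot be told apart. Whole kidneys, from a snap-frozen portion of the right kidney, came from untreated male mice of 3, 12 and 24 months (n = 3 each). Nothing in the labels ties the cultures to separate mice, and the p-values for PTEC then measure only the spread between these cultures. Proximal tubule markers summed to between 169 and 850 CPM (counts scaled to a common library size) in the PTEC cultures and to between 12100 and 22820 CPM in the kidneys, and 7 of 11 such markers averaged at least 1 CPM in non-senescent PTEC and 5 of 11 in senescent PTEC. Libraries held 26963442 to 35409144 counts in PTEC, 37311247 to 49471409 in 3-month-old kidneys, 54097073 to 59718029 at 12 months and 62761670 to 66894790 at 24 months. The 3-month-old kidneys were counted on another gene set than the older kidneys.

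Entry into mitosis is driven by CDK1 bound to A- and B-type cyclins. Kinetochores then attach chromosomes to the spindle, and the spindle checkpoint holds back the anaphase-promoting complex (APC/C) until all are attached. APC/C with CDC20 then marks cyclin B and securin for destruction, separase cuts cohesin, and the midzone and the actomyosin ring split the cell. Most of these genes are transcribed late in the cell cycle and are repressed in resting and senescent cells by the DREAM complex, which binds through the MuvB core to a promoter element called the cell cycle homology region, while the factor NF-Y binds nearby CCAAT boxes. Adult tubules divide rarely and do so more often after injury.

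Promoters were examined because the members moved together in PTEC. RefSeq windows of GRCm38.p6, from 250 bases before to 50 bases after the start site, were at hand for 39 of the 48 genes. The letters TTTGAA, the core of the cell cycle homology region, stood on either strand in 28 of these 39 (71.8%), against 20.2% of 27025 genes with such a window. CCAAT was also held by 28 (71.8%, against 41.1%), and both motifs together by 25 (64.1%, against 7.97%). With the variant TTCGAA the count was 29 (74.4%, against 21.7%), and 27 (69.2%, against 6.12%) held the core or its variant within 50 bases of the start. The core and its variant differ in a single letter and were counted once per gene. Such short matches are descriptions of the windows and not measured binding sites. The stretches below run from 100 bases before to 30 bases after the start and show CCAAT boxes ahead of a TTTGAA match near the start in 6 members, beside Pttg1, the member that behaved otherwise in PTEC. Capitals mark these motifs on either strand, so that a CCAAT box on the other strand reads ATTGG.
Cdk1, chr10:69352883-69353012, minus strand: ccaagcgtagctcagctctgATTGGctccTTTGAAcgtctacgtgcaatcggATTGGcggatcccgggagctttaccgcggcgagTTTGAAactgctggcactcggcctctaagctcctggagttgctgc
Ccnb2, chr9:70421525-70421654, minus strand: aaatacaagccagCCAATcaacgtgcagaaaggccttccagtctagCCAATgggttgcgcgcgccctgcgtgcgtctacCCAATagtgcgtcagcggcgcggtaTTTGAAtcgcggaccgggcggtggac
Cdc20, chr4:118437314-118437443, minus strand: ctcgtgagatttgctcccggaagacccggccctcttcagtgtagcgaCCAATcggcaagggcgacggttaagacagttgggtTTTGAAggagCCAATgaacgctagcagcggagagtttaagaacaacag
Kif18b, chr11:102925095-102925224, minus strand: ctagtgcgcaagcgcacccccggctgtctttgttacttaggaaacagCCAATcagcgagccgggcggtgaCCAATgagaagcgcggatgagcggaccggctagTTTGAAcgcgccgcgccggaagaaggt
Hmmr, chr11:40733408-40733537, minus strand: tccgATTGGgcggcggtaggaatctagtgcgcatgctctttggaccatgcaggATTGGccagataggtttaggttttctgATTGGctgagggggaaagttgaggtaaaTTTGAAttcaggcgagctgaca
Prc1, chr7:80294351-80294480, plus strand: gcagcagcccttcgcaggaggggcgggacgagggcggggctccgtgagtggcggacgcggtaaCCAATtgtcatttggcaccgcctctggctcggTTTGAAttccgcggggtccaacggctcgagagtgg
Pttg1, chr11:43425952-43426081, minus strand: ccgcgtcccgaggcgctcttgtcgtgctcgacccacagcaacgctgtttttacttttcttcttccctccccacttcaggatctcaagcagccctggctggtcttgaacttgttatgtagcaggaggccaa

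In Ccnb2, Kif18b and Hmmr the TTTGAA match began 4, 3 and 8 bases after the start site, and in Cdc20 and Cdk1 18 and 15 bases before it. The Pttg1 window held none of the letters searched, and neither did those of 7 other members (Mybl2, Melk, Mad2l1, Birc5, Nuf2, Nusap1 and Ncaph), all 7 of which were down-regulated in senescent PTEC (log2 fold changes from -5.51 to -2.54). A window without a match says only that these letters are not in it. Its RefSeq start lies inside the longer GENCODE gene model.

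**Figure D1:**
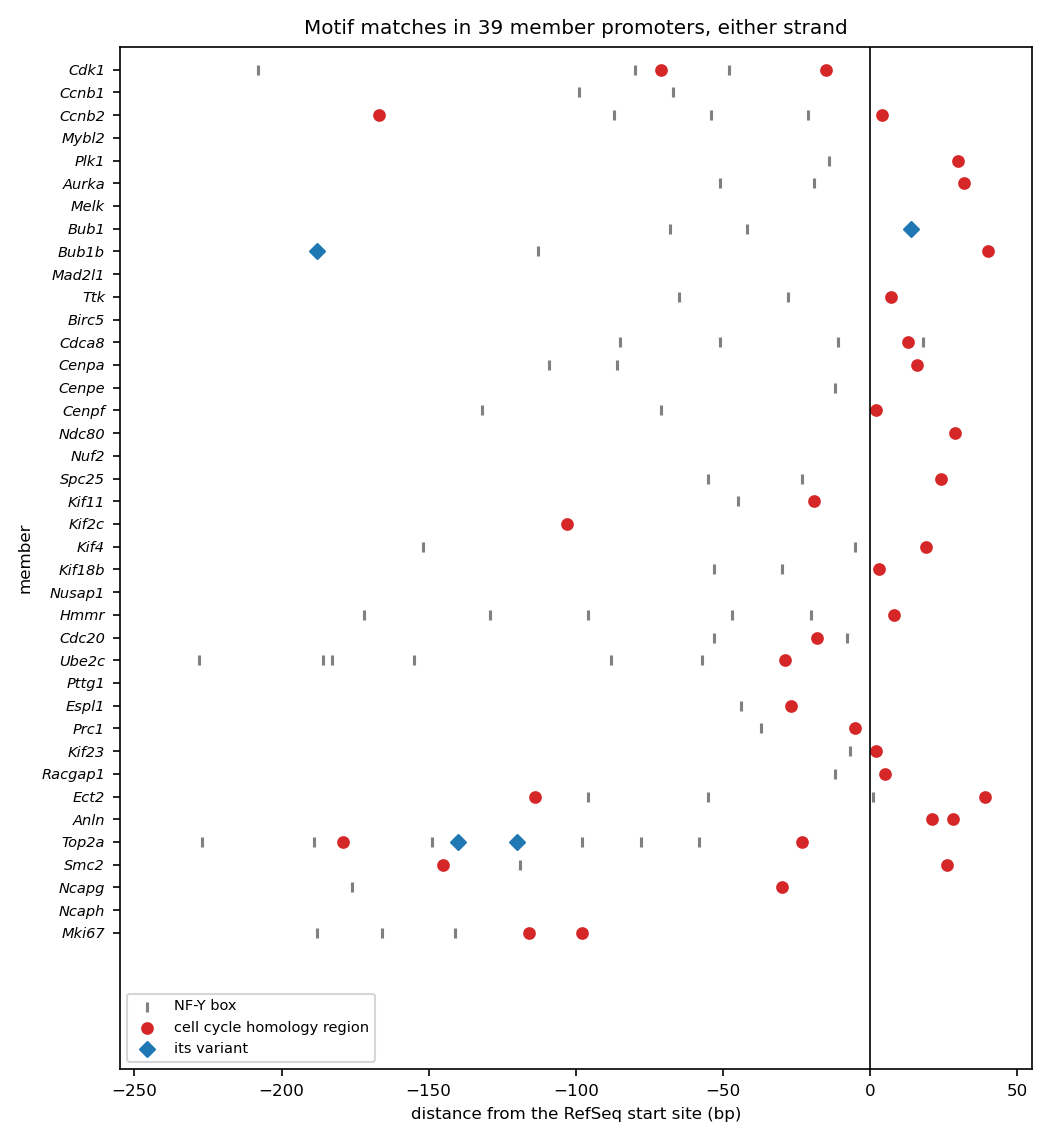
Position of motif matches in the promoter windows of 39 members, in bases from the RefSeq start site (the first window is drawn for Prc1 and Ect2, which have 2). Circles are matches to the core of the cell cycle homology region, diamonds its variant and grey ticks NF-Y boxes (CCAAT), on either strand, and most circles lie close to the start.

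Senescent PTEC were compared with non-senescent PTEC to see how far the mitotic programme was lost. Of the 48 genes, 47 were down-regulated (adjusted p under 0.05 by edgeR's quasi-likelihood test and a log2 fold change beyond 0.5 in size), where 19.7% of the 15434 genes tested were down-regulated. No member was up-regulated, against 20.1% of all genes. In the same 47 genes every senescent culture lay below every non-senescent culture, which held for 19.9% of all genes tested. The median log2 fold change of the members was -4.70, against -0.002 over all genes tested. In bulk samples, fewer dividing cells and less RNA per cell cannot be told apart. Summed over the 48 genes, non-senescent cultures held 6007, 6101, 4271 and 3708 CPM and senescent cultures 373, 339, 277 and 336 CPM. The senescent mean was under 5% of the non-senescent mean in 28 genes, 5 to 10% in 12 and 10 to 20% in 7.

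The genes that set off mitosis fell together. Cdk1, the kinase itself, measured 142, 146, 130 and 74.7 CPM in non-senescent PTEC and 9.20, 7.23, 8.05 and 9.15 CPM in senescent PTEC (log2 fold change -3.87 ± 0.23 SE, adjusted p = 3.62e-06). Its partner Ccna2, cyclin A2, went from 250, 237, 199 and 130 CPM to 5.63, 5.39, 2.40 and 4.46 CPM (-5.51 ± 0.33, adjusted p = 3.80e-06). It fell furthest of all members in this fit, with Birc5 close to it. Without non-senescent culture 4 the order turned, at -5.69 for Ccna2 and -5.71 for Birc5. The B-type cyclin genes Ccnb1 and Ccnb2 had log2 fold changes of -5.08 and -5.29. Cdc25c, the phosphatase that activates CDK1, stood at -5.12. The transcription factors Foxm1 and Mybl2, which switch on late cell cycle genes, stood at -3.78 and -4.79.

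All 3 mitotic kinases of the next group fell. Plk1, polo-like kinase 1, measured 133, 126, 106 and 68.5 CPM in non-senescent PTEC and 3.54, 3.18, 2.62 and 3.14 CPM in senescent PTEC (-5.12 ± 0.24, adjusted p = 2.61e-06). Aurka, which matures the spindle poles, stood at -4.27 and Melk at -4.68. Among the spindle checkpoint genes the log2 fold changes ran from -3.35 for Mad2l1 to -5.35 for Bub1, with Bub1b at -3.98 and Ttk, the kinase at the top of the checkpoint, at -5.20. The chromosomal passenger complex was less even. Birc5, survivin, stood at -5.51, Aurkb at -4.89 and Cdca8, borealin, at -4.37, while Incenp, the scaffold of the complex, measured 110, 107, 94.3 and 68.5 CPM against 13.9, 12.4, 13.2 and 13.8 CPM (-2.83 ± 0.17, adjusted p = 3.63e-06).

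At the centromere and kinetochore all 7 genes fell. Cenpa, the centromeric histone, stood at -5.05, Cenpf at -4.76 and the motor Cenpe at -3.99. The 4 subunits of the NDC80 complex, which grips microtubules, did not read alike. Ndc80, Nuf2 and Spc24 stood at -4.51, -4.77 and -4.84, whereas Spc25 measured 45.8, 43.9, 46.5 and 30.7 CPM in non-senescent and 8.53, 8.34, 7.43 and 7.18 CPM in senescent PTEC (-2.41 ± 0.17, adjusted p = 8.83e-06). The 95% interval for Spc25 ran from -2.78 to -2.03, and its difference from its partners was not tested. The spindle motors Kif11, Kif2c, Kif4 and Kif18b stood at -5.12, -5.23, -4.72 and -4.11, and Nusap1 and Hmmr, which bind spindle microtubules, at -4.31 and -4.84. Tpx2, the activator of Aurora A, changed less, at 196, 201, 143 and 116 CPM against 31.0, 25.4, 28.2 and 31.6 CPM (-2.50 ± 0.19, adjusted p = 1.56e-05).

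Pttg1, securin, the inhibitor of separase, was the exception. It measured 17.2, 15.8, 27.1 and 18.4 CPM in non-senescent PTEC and 20.2, 20.2, 29.4 and 19.1 CPM in senescent PTEC. The groups overlapped, and the log2 fold change was 0.18 ± 0.21 (95% interval -0.29 to 0.66, adjusted p = 0.515). The interval leaves room for a rise or a small fall. Its partner Espl1, separase, had a log2 fold change of -5.35, and Cdc20 and Ube2c, the activator and the ubiquitin-conjugating enzyme of APC/C, stood at -4.86 and -5.10. Among midzone and cytokinesis genes, Prc1, Kif20a, Kif23, Racgap1 and Ect2, which build the midzone and activate RhoA there, stood at -4.23, -4.42, -4.31, -4.0 and -3.76. Anln, anillin, had the smallest fall of them, from 318, 322, 148 and 223 CPM to 37.9, 30.7, 18.4 and 31.3 CPM (-3.10 ± 0.30, adjusted p = 5.86e-05).

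Genes of mitotic chromosome structure fell by unlike amounts. Mki67, the Ki-67 antigen that coats mitotic chromosomes, measured 369, 466, 156 and 349 CPM in non-senescent and 11.0, 9.04, 3.38 and 8.12 CPM in senescent PTEC (-5.41 ± 0.46, adjusted p = 2.47e-05). Top2a, topoisomerase II alpha, went from 424, 442, 206 and 250 CPM to 14.8, 14, 7.51 and 13.9 CPM (-4.72 ± 0.34, adjusted p = 9.97e-06). Of the condensin subunits, Ncapg stood at -5.05 and Ncaph, its partner in condensin I, at -2.54. The core pair Smc2 and Smc4, which all condensins share, stood at -2.96 and -2.87, and Smc4 still measured 30.3, 33.0, 23.9 and 25.9 CPM in senescent PTEC. On a per-length scale the highest member in non-senescent PTEC was Ccnb2, at 65.7 CPM per kilobase of exon, followed by Cdc20 at 64.3. In senescent PTEC the order was Pttg1 at 11.1, Tpx2 at 6.21 and Smc4 at 5.43 CPM per kilobase.

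**Figure D2:**
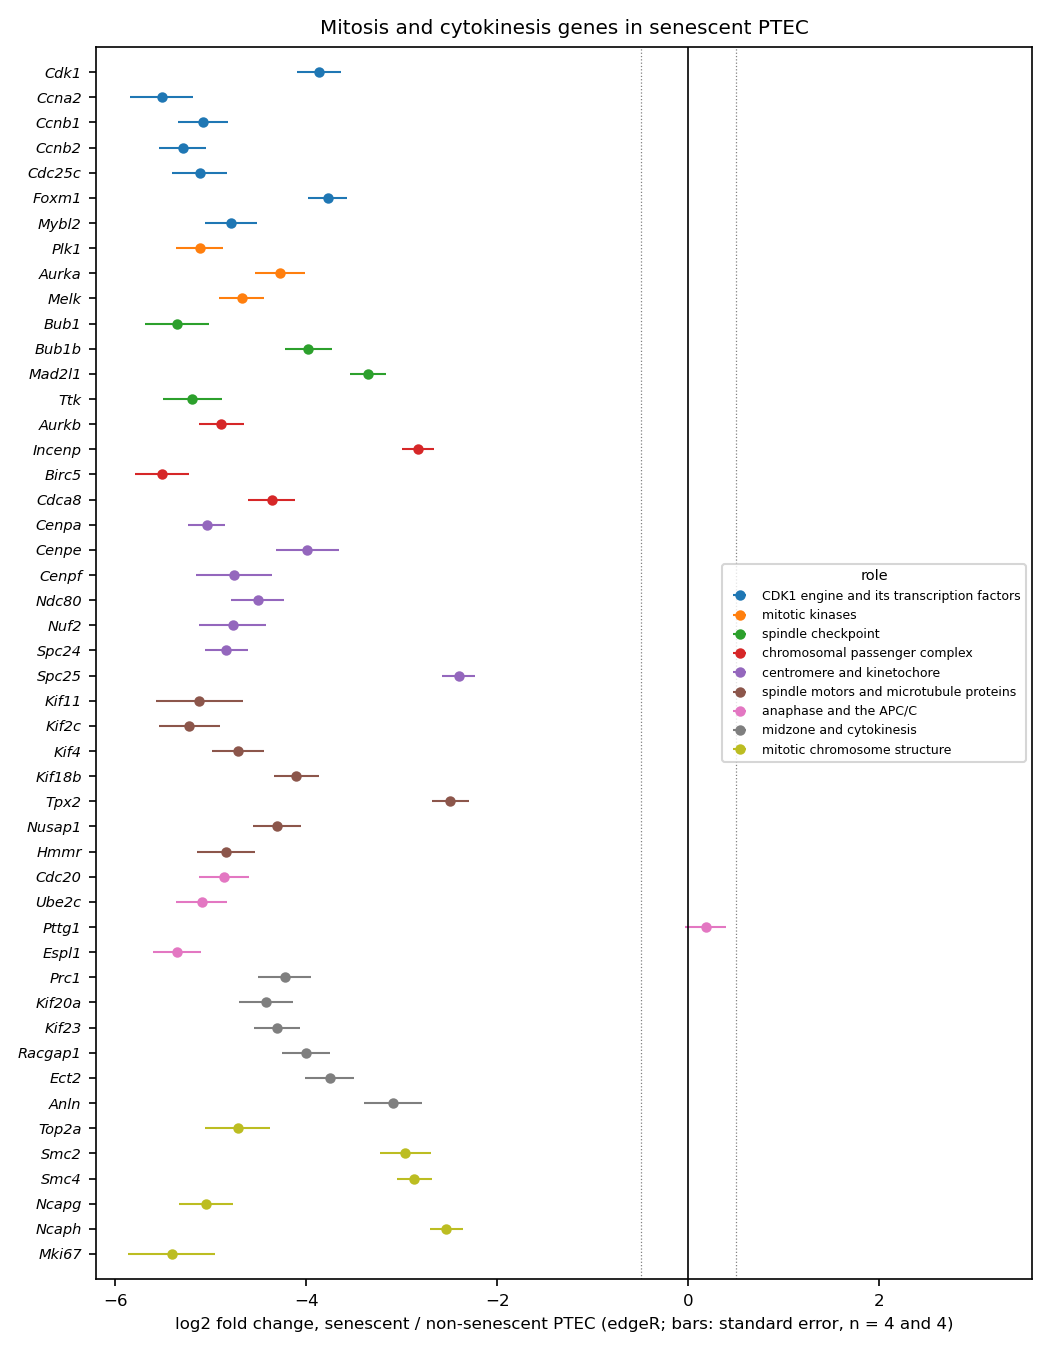
Log2 fold change of each of the 48 members in senescent against non-senescent PTEC, coloured by role. Points are edgeR estimates with standard errors (n = 4 and 4), dotted lines mark 0.5 in either direction, and Pttg1 is the only member to the right of -2.

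The cultures of 1 group were not alike. Non-senescent culture 4 was the lowest of its group for 36 of the 48 genes, where it was lowest for 28.6% of all genes tested, and its proximal tubule markers summed to 850 CPM against 215 to 259 CPM in the other 3. Non-senescent culture 3 was lowest for 11 genes, among them Cenpe, Cenpf, Kif11, Top2a and Mki67 (33.5% of all genes), and senescent culture 3 was lowest for 33 (35.5% of all genes). Both cultures numbered 3 read longer genes lower. Across the 48 members, the deviation of a culture from the mean of the others fell with exon length, with a Spearman rho of -0.678 in non-senescent and -0.435 in senescent culture 3, and across 15422 genes rho was -0.538 and -0.447. In the remaining cultures the members' rho lay between 0.286 and 0.601, with 0.542 in non-senescent culture 4. These are correlations across genes, which are not independent replicates. Members with over 5 kilobases of exon deviated in non-senescent culture 3 by a median of -0.40 on the log2 scale and shorter members by 0.08. With both cultures left out, a choice made after seeing the data, 47 members were still down-regulated. Markers of other cells moved between the groups as well. The 7 fibroblast and pericyte markers summed to 16.5 to 96.1 CPM in non-senescent and 120 to 427 CPM in senescent cultures, without overlap, and 4 of 6 tested were up-regulated (20.1% of all genes), led by Postn (3.27, adjusted p = 0.000171). Of 6 proximal tubule markers tested 3 were down-regulated, among them Hnf4a (-2.98), and of 5 pan-leukocyte markers 3, where 19.7% of all genes were. The part of gene length, or of these markers, in the members' values was not tested.

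**Figure D3:**
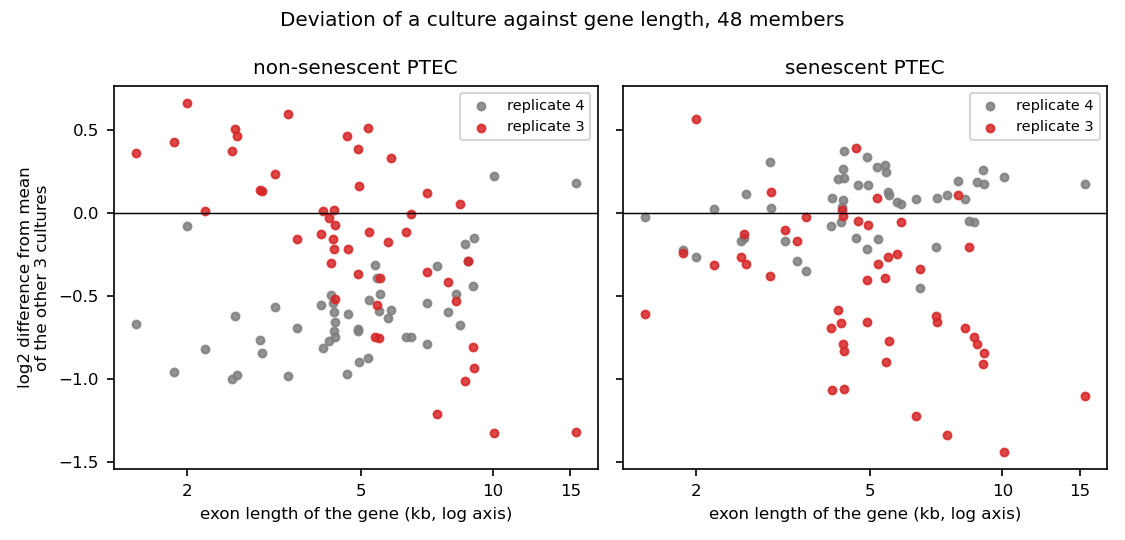
Deviation of cultures 3 and 4 from the mean of the other 3 cultures of their group (log2 scale) against exon length in kilobases (log axis), 1 point per member. Points of culture 3 slope downwards with length in both groups, and those of non-senescent culture 4 lie mostly below 0.

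The same genes were then followed through whole kidneys of 3 ages. In kidneys the members are rare transcripts. Of the 47 that passed the filter on low counts, 20 lay under 1 CPM in all 3-month-old kidneys, 28 in all 12-month-old kidneys and 4 in all 24-month-old kidneys. Cdc25c, the member that did not pass, held at most 18 counts in a kidney. A mean of at least 5 CPM at 3 months was found for Pttg1, Smc4, Spc25, Ect2, Mad2l1 and Smc2. At 24 months 12 members were up-regulated against 3 months (1.89% of the 17067 genes tested), and 19 against 12 months (0.896%), among them all of the 12. None was down-regulated in either comparison (0.451% and 0.434% of all genes). Between 3 and 12 months 0 of the 47 passed the test by edgeR in either direction (1.22% of all genes up and 1.36% down), with 0 at an unadjusted p under 0.05 and 0 by DESeq2. The comparisons share kidneys and are not independent of each other.

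Medians describe the same course. The median log2 fold change was -0.47 from 3 to 12 months, 1.74 from 12 to 24 months and 1.16 from 3 to 24 months, where all genes tested had medians of 0.004, 0 and 0.001. Every 24-month kidney lay above every 3-month kidney for 30 members (11.9% of all genes) and above every 12-month kidney for 38 (13.5%). For 35 of the 47 genes the 12-month mean was below and the 24-month mean above the 3-month mean. All kidneys of 24 months lay above the other 6 kidneys for 30 of the 47 genes, which held for 4.71% of all genes tested. The 3-month and 12-month kidneys did not overlap for 13 members lower at 12 months (9.4% of all genes) and for 1, Nusap1, higher (10.9%).

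The calls at 24 months depended on single kidneys. Against 3 months, leaving out 3-month kidney 1 ended all calls (0 up-regulated members and 52 of all genes, with 30 members at an unadjusted p under 0.05). Leaving out 3-month kidney 3, 24-month kidney 1 or 24-month kidney 2 left 4, 6 and 7 (0.789%, 0.716% and 0.907% of all genes). Against 12 months, leaving out any 12-month kidney, or 24-month kidney 1 or 2, left 0 (0 to 4 of all genes, with 34 to 38 members at an unadjusted p under 0.05). Leaving out 24-month kidney 3 left 11 (0.315% of all genes). The medians stayed between 0.84 and 1.39 against 3 months and between 1.28 and 1.98 against 12 months in these fits. Same-numbered kidneys of 12 and 24 months, from different mice, deviated together by the rule used (r from 0.172 to 0.557), but 12-month kidney 3 correlated better with 24-month kidney 1 (r = 0.27) than with its own number. With the number as a block in a fit of these ages alone 34 members were up-regulated (7.77% of all genes) and 1, Spc25, down-regulated (-0.55, adjusted p = 0.0272, with 5.41% of all genes down-regulated). A block over all 9 kidneys left 0 members and 0 of all 17067 genes, with 37 members at an unadjusted p under 0.05. DESeq2 called 24 up against 3 months (5.14% of all genes) and 32 against 12 months (3.47%), and 1 down against 3 months, Pttg1 (-0.52, adjusted p = 0.0144, with 2.35% of all genes down).

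The cyclin and kinase genes had their highest values at 24 months. Cdk1 measured 1.65, 0.799 and 1.93 CPM at 3 months, 0.625, 0.921 and 0.521 at 12 months and 2.21, 7.02 and 1.91 at 24 months. Its 24-month group overlapped the 3-month group, and the changes of 1.35 ± 0.54 against 3 months and 2.42 ± 0.56 against 12 months did not pass (adjusted p = 0.239 and 0.0796). Ccnb1 was up-regulated, from 0.446, 0.348 and 0.855 CPM at 3 months and 0.330, 0.477 and 0.309 at 12 months to 1.96, 4.04 and 1.49 (2.18 ± 0.47, adjusted p = 0.0499, and 2.73 ± 0.48, adjusted p = 0.0360). Its value against 3 months lies at the threshold. Ccnb2 rose by 2.45 and Foxm1 by 1.78 against 12 months, while Ccna2 stood at adjusted p = 0.0705 there. DESeq2 called Ccna2, Ccnb2 and Foxm1 in both comparisons and Cdk1 against 12 months. The block over 12 and 24 months alone called the same genes. Mybl2, by contrast, measured 0.210, 0.143 and 0.607 CPM at 3 months and 0.199, 0.410 and 0.0922 at 24 months, on 6 to 27 counts a kidney. Its 95% interval ran from -2.02 to 1.12 and leaves room for a rise or a fall.

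Plk1 had the largest log2 fold change of the members between 3 and 24 months. It measured 0.394, 0.492 and 0.337 CPM at 3 months, 0.451, 0.411 and 0.482 at 12 months and 1.56, 3.24 and 1.80 at 24 months, with 15 to 24 counts behind each 3-month value and 102 to 213 behind each 24-month value. The older group lay wholly above the others (2.42 ± 0.33, adjusted p = 0.00983, against 3 months and 2.29 ± 0.33, adjusted p = 0.0196, against 12 months). Aurka stood at 1.45 and 1.85 in these comparisons without passing in the edgeR fit of all 9 kidneys, and Melk rose by 2.34 against 12 months. DESeq2 called Aurka and Melk in both comparisons, and the block over 12 and 24 months alone called both genes. In the edgeR fit of all 9 kidneys 0 of the 4 spindle checkpoint genes and 0 of the 4 genes of the chromosomal passenger complex passed in either comparison, with 2 and 3 at an unadjusted p under 0.05 against 3 months and 3 and 4 against 12 months. DESeq2 called 1 checkpoint gene against 3 months (Bub1b) and 1 against 12 months (Ttk), and 0 and 3 passenger genes (5.14% and 3.47% of all genes). The block over 12 and 24 months alone called 2 checkpoint and 3 passenger genes (7.77%). Their log2 fold changes against 12 months ran from 0.34 for Mad2l1 to 2.14 for Ttk and from 0.65 for Incenp to 1.71 for Birc5.

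Spindle motors and microtubule proteins were higher in the oldest kidneys. All 7 had every 24-month kidney above every 3-month and 12-month kidney (4.71% of all genes), and 4 of them against 3 months (1.89% of all genes) and 5 against 12 months (0.896%) were up-regulated. Hmmr, the hyaluronan-mediated motility receptor, measured 0.814, 0.594 and 0.720 CPM at 3 months, 0.468, 0.378 and 0.560 at 12 months and 2.12, 5.94 and 2.15 at 24 months (2.26 ± 0.43, adjusted p = 0.0313, and 2.86 ± 0.44, adjusted p = 0.0240). Kif2c, Kif4 and Tpx2 rose by 2.17, 1.64 and 1.75 against 3 months. Of the kinetochore genes Cenpf alone passed by edgeR, while DESeq2 called 2 against 3 months (5.14% of all genes) and 3 against 12 months (3.47%). Cenpf measured 0.578, 0.533 and 0.607 CPM at 3 months, 0.364, 0.230 and 0.617 at 12 months and 2.14, 3.85 and 1.98 at 24 months (2.21 ± 0.39, adjusted p = 0.0242, against 3 months). Prc1 was the cytokinesis gene up-regulated in both comparisons by edgeR (1.94 and 2.59), and Kif20a and Racgap1 rose by 1.99 and 1.27 against 12 months. Cdc20 went from 1.18, 1.31 and 1.22 CPM at 3 months and 1.34, 1.27 and 1.45 at 12 months to 4.0, 6.37 and 3.13 (1.86 ± 0.27, adjusted p = 0.0121, and 1.74 ± 0.27, adjusted p = 0.0239).

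Chromosome structure genes split. Mki67 measured 1.63, 2.44 and 1.75 CPM at 3 months, 1.82, 1.28 and 1.66 at 12 months and 10.2, 9.57 and 5.36 at 24 months (2.11 ± 0.29, adjusted p = 0.0103, and 2.40 ± 0.29, adjusted p = 0.0181). Top2a measured 2.02, 2.07 and 1.84, then 1.44, 1.56 and 1.31, then 6.84, 9.12 and 4.44 CPM (1.78 ± 0.26, adjusted p = 0.0121, and 2.24 ± 0.26, adjusted p = 0.0181). Both genes had their older kidneys clear of all others. Ncapg also rose (1.92 and 2.10). Smc4 did not pass the test, at 24.9, 24.3 and 25.9 CPM at 3 months and 24.4, 27.6 and 25.4 at 24 months, with a log2 fold change of 0.04 (95% interval -0.25 to 0.34, adjusted p = 0.857). Pttg1 and Spc25 lay lower in every 24-month kidney than in any 3-month kidney (10.1% of all genes) or 12-month kidney (12.2%) without passing the test. Pttg1 measured 39.4, 32.8 and 40.0 CPM at 3 months, 38.1, 34.6 and 38.2 at 12 months and 22.7, 28.4 and 27.9 at 24 months (-0.51 ± 0.15, adjusted p = 0.118). Spc25 measured 18.8, 17.7 and 30.4, then 25.2, 20.2 and 16.7, then 13.2, 16.4 and 12.5 CPM (-0.67 ± 0.24, adjusted p = 0.205). Per kilobase of exon, Pttg1 (18.7 CPM), Spc25 (6.99) and Smc4 (4.80) were the highest members in 3-month-old kidneys.

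**Figure D4:**
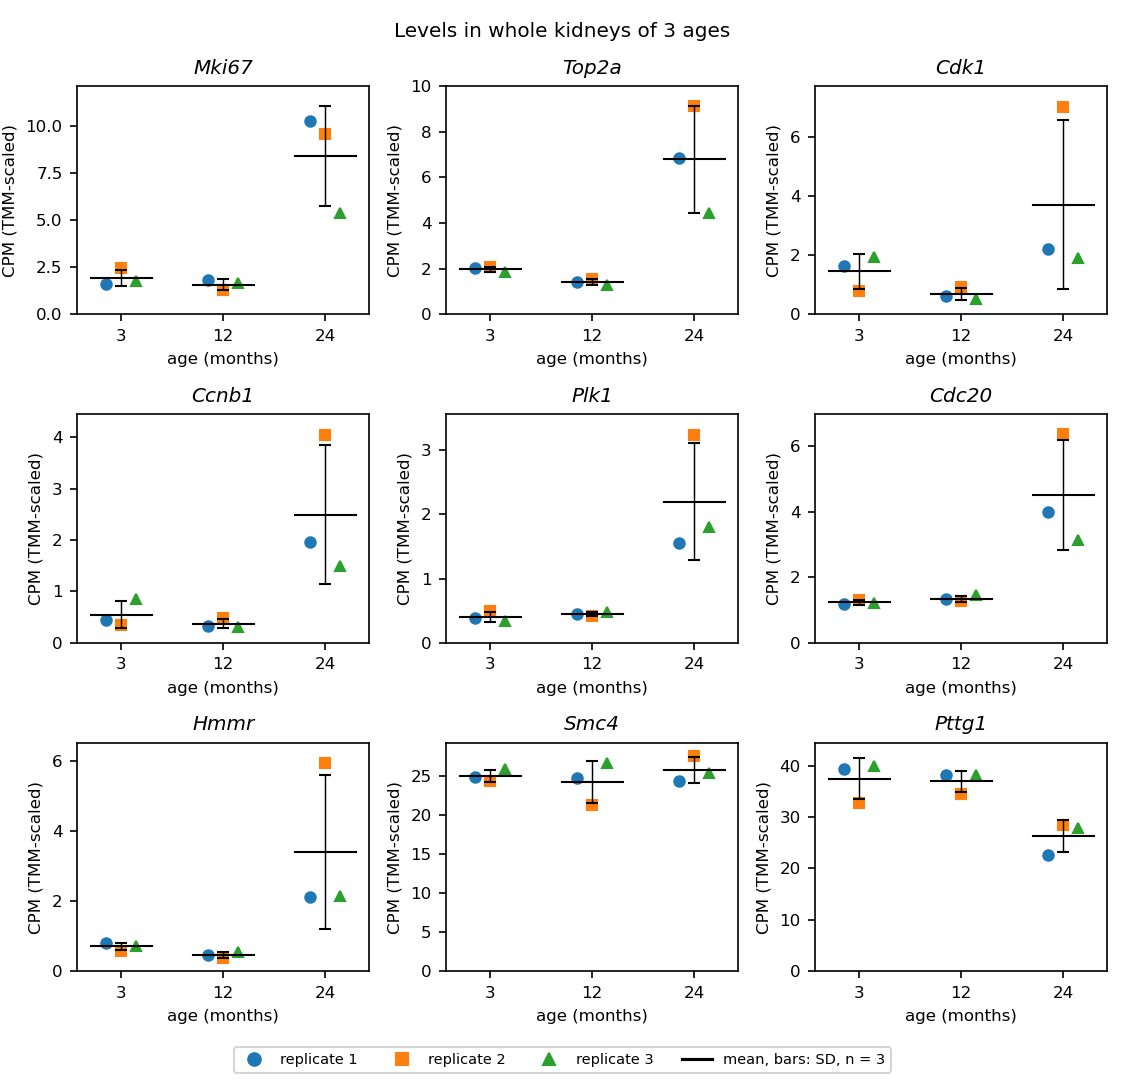
Levels of 9 members in single kidneys (CPM, linear axes from 0) against age in months, with the mean and SD of 3 kidneys. Mki67, Top2a, Ccnb1, Plk1, Cdc20 and Hmmr have all 24-month kidneys above the rest, Smc4 stays near 25 CPM and Pttg1 is lowest at 24 months.

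A single kidney had the largest values. 24-month kidney 2 was the highest of the 9 for 39 of the 47 genes, where this held for 6.08% of all genes tested. Its members stood at a median of 1.82 on the log2 scale above the 3-month mean, against 0.89 and 0.54 in 24-month kidneys 1 and 3. Without it, 7 members were up-regulated against 3 months (0.907% of all genes) and the median was 0.84. Cdk1 then stood at 0.50 against 3 months and 1.58 against 12 months, Hmmr at 1.60 and 2.19, and Top2a at 1.515 and 1.97. The highest kidney was 24-month kidney 1 for Foxm1, Espl1 and Mki67, and 3-month kidney 3 for Mybl2, Spc24, Spc25, Pttg1 and Ect2. Summed over all 48 genes, CPM reached 142, 128 and 166 at 3 months, 135, 130 and 128 at 12 months and 167, 246 and 153 at 24 months, sums in which Pttg1, Smc4 and Spc25 weigh heavily.

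**Figure D5:**
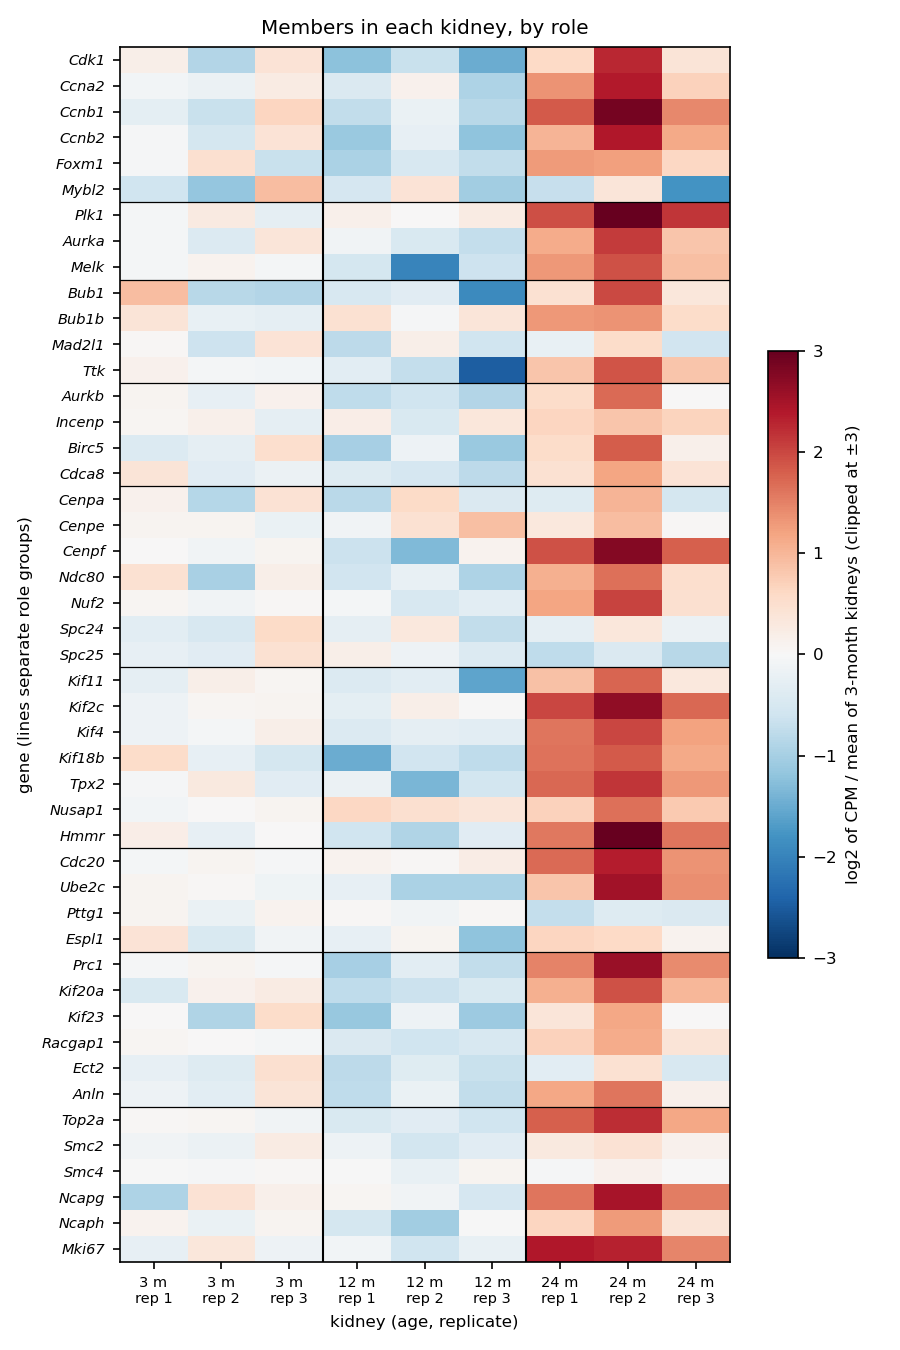
Log2 ratio of each kidney's CPM to the mean of the 3-month-old kidneys for the 47 members tested, in role groups, with colours clipped at 3 in either direction. The 3 columns of 24 months are mostly red, and replicate 2 is the deepest of them, while most values at 12 months are pale or blue.

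Other measures differed with age in these kidneys. Markers of other cell types were summed beside the members. T and NK cell markers (11 genes) summed to 3.26 to 4.36 CPM at 3 months, 5.67 to 10.5 at 12 months and 6.96 to 10.6 at 24 months, and 3 of 10 tested (Cd3e, Cd3g and Cd4) rose between 3 and 24 months, where 1.89% of all genes did. B and plasma cell markers (10 genes) summed to 7.09 to 16.7, 49 to 232 and 116 to 773 CPM, with 4 of 9 up-regulated between 3 and 24 months. The 6 pan-leukocyte markers summed to 32.3 to 43.2, 53.9 to 66.6 and 59.4 to 87.2 CPM and the 10 macrophage markers to 112 to 180, 166 to 190 and 189 to 247 CPM. Between 3 and 24 months 1 of these macrophage markers (C1qc) and 0 of the pan-leukocyte markers passed. DESeq2 called 6 macrophage, 2 pan-leukocyte, 6 T and NK and 7 B and plasma cell markers there (5.14% of all genes). Between 3 and 12 months Cd3g, Cd79a and Igkc passed (1.22% of all genes), and DESeq2 called 5 T and NK and 4 B and plasma cell markers (3.95%). Among the 24-month kidneys, kidney 2 held the highest sum of B and plasma cell markers, and kidney 1 that of T and NK, pan-leukocyte, macrophage and fibroblast markers. The sums of proximal tubule (17930 CPM), tubular injury (208 CPM), endothelial (172 CPM) and fibroblast markers (162 CPM) were lowest of this age in kidney 2. Between 12 and 24 months none of these 4 immune lists had a gene that passed in the edgeR fit of all 9 kidneys, with 0, 1, 4 and 2 genes of the leukocyte, T and NK, B and plasma and macrophage lists at an unadjusted p under 0.05. DESeq2 called 1 B and plasma cell marker there (Ighm, with 3.47% of all genes up), and the block over these ages alone called 4 markers, Laptm5, Ms4a1, C1qa and C1qc (7.77%). The 7 tubular injury markers summed to 160 to 274, 143 to 213 and 208 to 227 CPM, and 2 of these, Lcn2 and Krt18, were down-regulated between 3 and 12 months (-1.80 and -2.21, with 1.36% of all genes down). The median of these 7 markers was -0.81 there, with 5 lower and 2 higher. Between 12 and 24 months their median was 1.54, 6 of 7 had every 24-month kidney above every 12-month kidney (13.5% of all genes) and an unadjusted p under 0.05, and Sox9, a factor of regenerating tubule cells, passed the test (1.65, adjusted p = 0.0287). DESeq2 called 4 of the 7 up there (3.47% of all genes) and the block over these ages alone called 6 (7.77%). Between 3 and 24 months 2 of the 7, Sox9 (1.26) and Vcam1 (1.58, adjusted p = 0.0113), were up-regulated (1.89% of all genes). The median of the 7 injury markers was -0.08 there, with 3 higher and 4 lower. The 7 fibroblast and pericyte markers summed to 98.9 to 122 CPM at 3 months, 133 to 136 at 12 months and 162 to 204 at 24 months, without overlap, and none passed between any ages in the edgeR fit of all 9 kidneys, with 3 of 7 at an unadjusted p under 0.05 between 3 and 24 months. DESeq2 called 2 of these 7 between 3 and 24 months (5.14% of all genes) and 1 between 12 and 24 months (3.47%). The block over 12 and 24 months alone called 3, Col1a1, Col1a2 and Postn (7.77%). Of 11 proximal tubule markers 3 were up-regulated between 3 and 24 months (1.89% of all genes), Slc5a2 (1.88, adjusted p = 0.00997), Slc5a12 (1.56) and Miox (0.74). The 6 endothelial markers summed to 161 to 230, 238 to 278 and 172 to 300 CPM, and none passed between any ages in the edgeR fit of all 9 kidneys. Between 12 and 24 months their median was -0.17. DESeq2 called 1 of them, Emcn, down there (2.26% of all genes), as did the block over these ages alone (5.41%). No T and NK, B or plasma cell marker passed the filter in PTEC, where Cd3d and Cd3g were at 0 in all cultures. Depth also rose with age, and the gene set differed between 3-month-old and older kidneys. Deviations within an age also went with exon length in some kidneys. Across 17067 genes rho was 0.384 and -0.389 in 3-month kidneys 2 and 3 and -0.316 in 12-month kidney 2. It was 0.344 and -0.285 in 24-month kidneys 1 and 2. Across the 47 members rho ran from -0.228 in 24-month kidney 3 to 0.342 in 24-month kidney 1, with -0.082 in 24-month kidney 2. The part of these measures in the members' values was not tested.

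Relatives of the members were counted from lists of the same pathway. Of 66 further mitosis genes, 63 were down-regulated in senescent PTEC (median -3.27, with 19.7% of all genes down-regulated), and Zwint (-0.01), Mis12 (-0.38) and Ckap5 (-0.52) did not pass. In kidneys 2 of 64 rose between 3 and 24 months, Iqgap3 by 1.90 and Kif22 by 1.46 (median 0.42), a share of 3.12% against 1.89% of all genes, and DESeq2 called 11 (5.14% of all genes). Between 12 and 24 months 6 rose, namely Cdca2, Ckap2, Ckap2l, Aspm, Gtse1 and Iqgap3 (median 0.51, with 0.896% of all genes up-regulated), and Cdca2 was the gene of this list down-regulated between 3 and 12 months (-1.73, adjusted p = 0.0368). DESeq2 called 17 of the list up between 12 and 24 months (3.47% of all genes), and the block over these ages alone called 23 (7.77%). All 30 DNA replication genes were down-regulated in senescent PTEC (median -2.81), but between 3 and 24 months 0 passed by edgeR and 3 by DESeq2 (2 up and 1 down), with 7 at an unadjusted p under 0.05 and a median of -0.10. Mcm5, of the replicative helicase, fell by 0.69 between 3 and 12 months and rose by 1.18 between 12 and 24 months. Between 3 and 12 months DESeq2 called Cdt1 and Tk1 up and Cdc6 and Mcm5 down (3.95% and 3.78% of all genes). Between 12 and 24 months it called 3 up and 2 down, Mcm10 and Tk1 (3.47% and 2.26%). The block over these ages alone called 5 up and 3 down, Gmnn, Mcm10 and Tk1 (7.77% and 5.41%).

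Partners of the mitotic machinery were counted as 3 further lists. Their median log2 fold changes in PTEC were -0.17 (APC/C), -0.425 (cohesin) and -0.49 (DREAM and MuvB), against -4.70 for the members. The difference was not tested. Of 15 APC/C core subunits and cofactors 4 were down-regulated (Anapc5, Anapc11, Anapc15 and Fzr1, from -1.04 to -0.73, list median -0.17), which is 26.7% against 19.7% of all genes. Of 11 cohesin genes 4 fell (36.4%), with the S-phase acetyltransferase Esco2 at -4.31 and Smc1a, Smc3 and Rad21 between -0.95 and -0.56. Of 12 genes of the DREAM and MuvB complexes 6 fell (50%), led by Lin9 (-1.88) and Rbl1 (-1.81). Another 2 rose (16.7%), Rbl2 by 0.79 and Tfdp2 by 0.73, where 20.1% of all genes rose. None of these 3 lists had a gene that passed in the edgeR fit of all 9 kidneys, with at most 3 genes of a list at an unadjusted p under 0.05 in a comparison. Between 12 and 24 months DESeq2 called 1 of 11 cohesin genes, Esco2, up (3.47% of all genes). The block over these ages alone called Esco2 up (7.77%) and 1 of 12 DREAM and MuvB genes, Lin52, down (5.41%). The letters TTTGAA stood in 55.4% of 56 promoters of the further mitosis genes, in 44.4% of 9 promoters of DREAM and MuvB genes, in 16.7% of 6 promoters of cohesin genes, in 13.6% of 22 promoters of replication genes and in 14.3% of 14 promoters of APC/C genes, against 20.2% of all genes with a window.

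Levels in culture and in tissue were set side by side without a test, since the tables were scaled apart and counted on different gene sets. Non-senescent PTEC had a higher mean than 24-month-old kidneys for 47 of the 48 genes, the exception being Pttg1 (19.6 against 26.3 CPM). Senescent PTEC still lay above 3-month-old kidneys for 45 of the 48, the exceptions being Spc24, Spc25 and Pttg1. Mki67, for example, averaged 335 ± 130 CPM (SD, n = 4) in non-senescent PTEC, 7.89 ± 3.24 in senescent PTEC, 1.94 ± 0.44 (SD, n = 3) in 3-month-old kidneys and 8.39 ± 2.65 in 24-month-old kidneys. Pttg1 averaged 19.6 ± 5.08 and 22.2 ± 4.84 CPM in non-senescent and senescent PTEC and 37.4 ± 3.99 CPM in 3-month-old kidneys.

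Some members share sequence with neighbours. On GRCm38, exons of Ccna2 overlap Exosc9 on the opposite strand, and such overlaps were also found for Cdc20 with Elovl1, Nusap1 with Oip5, Prc1 with Rccd1, Ube2c with Tnnc2, Kif4 with Pdzd11, Kif20a with Cdc23, Ncapg with Lcorl and others. Reads of these pairs can be told apart only where strand was used in counting. Cdc25c, Incenp, Ndc80, Kif11 and Kif20a carry another identifier version in the 3-month-old kidneys than in the older ones, and none of the 4 tested in kidneys (all but Cdc25c) was called between 3 and 24 months by edgeR, while DESeq2 called Kif20a (1.36, adjusted p = 0.00162). Mki67 lies at chr7:135689784-135716361 on the minus strand, Top2a at chr11:98992943-99024189 on the minus strand, Plk1 at chr7:122159439-122169873 on the plus strand and Pttg1 at chr11:43420250-43426251 on the minus strand.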

How the data were processed

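The authors selected poly(A) RNA of PTEC and kidneys, made directional libraries, read both fragment ends and ran the nf-core/rnaseq pipeline with GRCm38. They deposited raw counts per gene for each of the 17 samples, without normalization. Which tool counted the reads, and whether by strand, is not given in the sources used here. Symbols, positions and exon lengths were taken from GENCODE M21, and promoter windows from RefSeq (GRCm38.p6).

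The members, gene lists and tests were chosen with earlier results of these data known. Deposited counts were joined by identifier without version (53313 shared by all libraries, 53772 by the kidneys, 2351 of these with another version between the 3-month-old and older kidneys). PTEC and kidneys were fitted apart, the 9 kidneys in 1 fit, with edgeR 4.0.16 in R 4.3.3: TMM scaling, filterByExpr, robust quasi-likelihood tests and Benjamini-Hochberg adjustment over all genes tested. Called genes had an adjusted p under 0.05 and moved by over 0.5 on the log2 scale. Adjusted p-values come from edgeR except where DESeq2 (1.42.0) is named. CPM are TMM-scaled, intervals are 95%, and deviations against length used log2 of CPM plus 0.1. Named genes were Mki67, Top2a, Cdk1 and Ccnb1, the member highest per kilobase in each role group and the 3 largest and 3 smallest log2 fold changes of each comparison. Others are named as parts of a role group. Figures used Python 3.11.15 and matplotlib 3.10.9.

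The replicate number was taken to pair samples where every same-numbered pair had deviations from the group means that correlated above 0.1. This held for PTEC (r from 0.186 to 0.614, 4 pairs) and for kidneys of 12 and 24 months (r from 0.172 to 0.557, 3 pairs, different mice), but not for pairs with 3-month-old kidneys. The main fits used the group alone and left the number out, so the errors, intervals and p-values printed for PTEC are unpaired. The number entered only as a replicate block among the alternatives. Replicates differed by more than sampling noise in all 21 pairs (chi-square per gene 15.8 to 312), and none were merged. Fits were tested on simulated data. Alternatives were other scalings, no filter, DESeq2, a higher fold threshold, a replicate block, the compared ages alone and each library left out in turn.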

Additional observations from a re-analysis of the deposited data

Results flagged for a closer look

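Each member was checked in each PTEC group for a culture far from the other 3 by Dixon's test. Of 96 groups of 4, 4 passed it, where about 1 in 20 does by chance. Spc25 measured 30.7 CPM in non-senescent culture 4, below 43.9 to 46.5 CPM in the others. Senescent culture 3 accounted for the other 3. Pttg1, with 2 kilobases of exon, was high there, at 29.4 CPM against 19.1 to 20.2 CPM, while Top2a and Espl1, with 9.01 and 8.75 kilobases, were low, at 7.51 CPM against 13.9 to 14.8 CPM and at 0.729 CPM against 1.28 to 1.38 CPM.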

How the results depend on the processing

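In senescent PTEC 47 members were down-regulated under every alternative tried, the replicate block included, with log2 fold changes from -5.71 to -2.31, and no member was up-regulated. Between 3 and 24 months the 12 up-regulated members (1.89% of all genes) became 24 up (5.14%) and 1 down with DESeq2, 6 with the replicate block (0.598%) and 0 to 10 with 1 kidney left out (0.298% to 2.62%). Same-numbered kidneys of 3 and 24 months shared only a number. Between 12 and 24 months the 19 (0.896% of all genes) became 32 with DESeq2 (3.47%), 0 with the replicate block over 9 kidneys (0 of all genes) and 0 to 11 with 1 kidney left out (0% to 0.315%). They became 34 up (7.77%) and 1 down with the block in a fit of the compared ages alone, a choice made after seeing the data. No kidney call held under every alternative, and the cause was not tested. Other scalings, no filter, the compared ages alone and a log2 threshold of 1 left 8 to 14 and 14 to 21. Directions reversed for genes that were not called. With 1 kidney left out, Mybl2 against 3 months ran from -1.12 (without 24-month kidney 2) to 0.41 (without 3-month kidney 3), Smc4 against 3 months from -0.004 (without 24-month kidney 2) to 0.086 (without 24-month kidney 1), and Mybl2 against 12 months from -0.88 (without 24-month kidney 2) to 0.29 (without 12-month kidney 2), with 0.17 without 24-month kidney 3. Between 3 and 12 months no member was called under any alternative. Of the members tested, 20 had under 30 counts in a 3-month-old kidney, among them the called Plk1, Kif2c and Hmmr. The part of depth in the calls was not tested. Where a group was left with 2 kidneys, the fit pooled the spread over the ages.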
